A study of Rattus norvegicus with 12 samples.

Results

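Collagens are the main structural proteins of the airway wall, and 41 genes for collagen chains were measured in bronchi of rats that had inhaled 2,3-pentanedione (PD), a component of artificial butter flavoring, or filtered air. The chains were all genes whose symbol in the array annotation has the form of a collagen chain, such as Col1a1, and they are 41 of 14217 genes measured. Where a gene had more than 1 probe set, which was so for 14 of the 41, it was represented by the probe set whose log2 signal, averaged over the 12 arrays, was highest. The arrays held laser-captured bronchial wall of male Wistar Han rats, 6 to 7 weeks old on arrival. Of the arrays, 6 were of air-exposed controls (normal bronchial wall), and the other 6 were of rats exposed to 200 ppm PD for 2 weeks, with 3 of fibrotic and 3 of non-fibrotic bronchi. Fibrotic tissue was the fibrotic polyp or plaque with the wall under it, and non-fibrotic tissue came from separate bronchi in sections of the same lungs, with normal-looking or regenerating epithelium. The labels do not say which fibrotic and non-fibrotic specimens share a rat, so these 2 groups may not be independent.

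A collagen molecule is a triple helix of 3 chains, named by type in Roman numerals and encoded by genes numbered by type and chain. Fibrillar collagens (types I, III, V and others) assemble into the banded fibrils that bear tension, with type V regulating fibril diameter, and type I and III fibrils are what a scar is largely made of. Type IV forms the sheet-like network of basement membranes under epithelium and around vessels and muscle, and type VI forms beaded microfibrils around cells. FACIT collagens, such as types XII and XIV, attach to the surface of fibrils, transmembrane collagens, such as types XIII and XVII, are anchored in the cell membrane, and multiplexins (types XV and XVIII) lie at the border of basement membrane and stroma. By these classes the array held 11 fibrillar chains, 5 of basement membrane, 5 microfibrillar, 9 FACIT, 4 transmembrane, 2 multiplexin and 3 short-chain network chains, and 2 others, Col7a1 and Col26a1.

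Values are log2 of the MAS5 signal, so a difference of 1 is a 2-fold change. A chain was called, and is said to have risen or fallen, at a Benjamini-Hochberg adjusted p under 0.01 in a limma model of the 3 groups, adjusted over all 31042 probe sets tested. A background level of 6.52 was set by the highest signal of probe sets for bacterial transcripts taken to be absent from the RNA. These were trpn on all arrays and, on controls 1 and 2 only, the poly-A control transcripts. The latter were taken as not added there because their signal was low. Of the 41 chains, 15 were above this level on all 12 arrays and 8 were under it on all 12, namely Col2a1, Col4a4, Col9a1, Col10a1, Col19a1, Col22a1, Col24a1 and Col26a1. Type II collagen, the fibrillar collagen of cartilage, is among the latter, so type II collagen gave no signal above background in any group. Of 10 cartilage cell markers measured, 2 (Comp and Hapln1) were under the level on all 12 arrays and the others were above it on some array, with a summed signal of 872 to 1175 in controls, 545 to 837 in fibrotic and 674 to 945 in non-fibrotic bronchi.

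The bronchial wall described in the methods had its markers in the controls. There the summed signal of 5 ciliated cell markers was 22082 to 34809 and that of 10 smooth muscle markers 10766 to 41965. Alveolar markers gave signal in the controls too, with sums of 19458 to 40168 for 6 type II and 9419 to 13580 for 7 type I cell markers. The source of that alveolar signal was not tested. Labels of controls 1 and 2 have the form of those of the exposed arrays and labels of controls 3 to 6 another, which is not stated to be a batch. The mean log2 signal of the poly-A control transcripts grouped otherwise, at 2.32 in controls 1 and 2, 10.35 in controls 3 to 6 and 10.07 in the exposed arrays, so controls 1 and 2 stood apart from all other arrays in this measure. The 3′ to 5′ ratio of GAPDH, a sign of RNA quality, was 0.70 to 0.90 (log2) in controls 3 to 6, 1.16 to 2.03 in controls 1 and 2, 1.59 to 2.11 in fibrotic and 1.95 to 2.35 in non-fibrotic bronchi, and its part in the results was not tested.

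In fibrotic bronchi 9 collagen chains were higher than in controls and 2 were lower, and 30 did not pass the test. Those that rose were Col1a2, Col5a1, Col5a2, Col5a3, Col4a1, Col6a1, Col6a2, Col12a1 and Col14a1, and those that fell were Col4a5 and Col13a1. Thus 22.0% of the chains rose, where 4.13% of all genes did, and 4.88% fell, where 8.38% of all genes did. The median difference over the 41 chains was 0.88 (1.36 over the 15 chains above background on all arrays), against 0.10 over all genes. With signals under the background level set to it, the median over the 41 chains was 0.49. In tissue samples fewer cells of a type and less RNA per cell cannot be told apart, and markers of several cell types moved with the group. The summed signal of 11 fibroblast markers was 8325 to 13729 in controls and 15731 to 20291 in fibrotic bronchi, and that of 7 macrophage markers 11130 to 18557 and 25204 to 41685. The summed signal of the ciliated cell markers was 730 to 1980 in fibrotic bronchi. All 5 ciliated and all 7 club cell markers measured fell, and 3 of 11 fibroblast, 5 of 7 macrophage and 2 of 8 endothelial markers rose. Among alveolar markers 2 of 6 for type II cells fell, and of 7 for type I cells 1 rose and 1 fell. Of cartilage cell markers 2 of 10 fell, and of mesothelial markers 1 of 5 rose. None of 10 smooth muscle, 5 basal epithelial or 4 Schwann cell markers was called. The summed signal of the alveolar type II cell markers was 2409, 44836 and 5059 in fibrotic replicates 3, 7 and 9, against 19458 to 40168 in controls. The part of these cells in the collagen results was not tested.

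**Figure D1:**
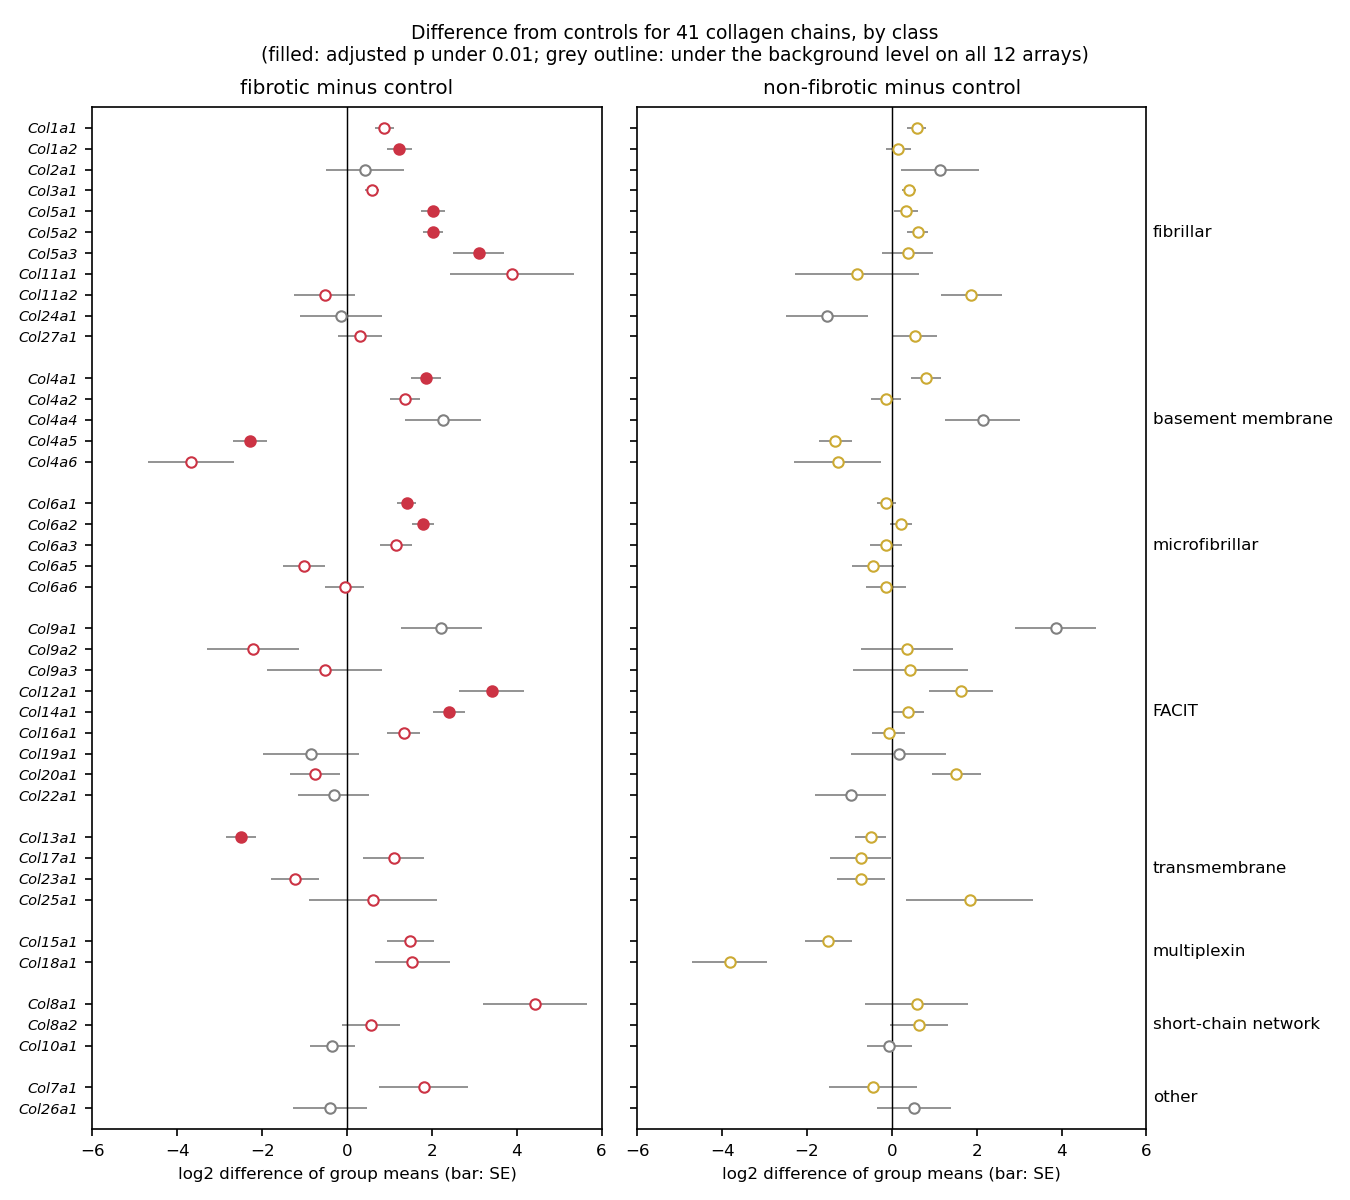
Difference in mean log2 signal from the 6 controls for each of 41 collagen chains, grouped by class, for fibrotic (left) and non-fibrotic bronchi (right), with bars of 1 standard error from limma. In fibrotic bronchi 9 filled points lie to the right of 0 and 2 to the left, and in non-fibrotic bronchi no point is filled.

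Of the 11 fibrillar chains, 4 rose in fibrotic bronchi (Col1a2, Col5a1, Col5a2 and Col5a3), none fell and 7 were not called, and the median difference was 0.88. All 3 chains of type V measured rose. Col5a2 (probe set 1373463_at) was at 9.88, 10.22 and 10.58 in the controls (lowest, median and highest), at 12.02, 11.88 and 12.84 in fibrotic replicates 3, 7 and 9, and at 11.15, 10.68 and 10.66 in non-fibrotic replicates 4, 8 and 10. All fibrotic arrays thus lay above all the others, by 2.02 ± 0.24 (SE) over controls (adjusted p = 3.0e-05). It was the 1 collagen chain whose call against controls held under every alternative run.

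Col5a1 (1376099_at), its partner in the type V helix, was at 9.51, 10.19 and 10.53 in controls, 11.74, 12.04 and 12.76 in fibrotic and 11.00, 10.16 and 10.25 in non-fibrotic bronchi. The difference from controls was 2.03 ± 0.28 (adjusted p = 0.00011), which is 4.09-fold, against 4.07-fold for Col5a2. Its second probe set differed by 1.52 ± 0.40 (adjusted p = 0.014). Within each array the log2 signal of Col5a1 minus that of Col5a2 ranged from −0.37 to 0.14 in controls and from −0.28 to 0.16 in fibrotic bronchi, so both chains shifted together. Col5a3 (1368347_at), the less common chain of type V, was dim in controls, at 5.71, 6.55 and 7.72, where 3 of 6 arrays were under the background level. It was at 9.41, 8.78 and 10.90 in fibrotic and 8.25, 5.53 and 7.10 in non-fibrotic bronchi, and differed from controls by 3.11 ± 0.60 (adjusted p = 0.0019), or by 2.93 where dim arrays were placed at the level. This call was lost without fibrotic replicate 9 and with a term for the label form (2.50, adjusted p = 0.051). Fibrotic replicate 9 had the highest signal for all 3 chains of type V, and for 7 of the 9 chains that rose.

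The chains of types I and III, the bulk of airway and scar fibrils, differed by less in signal. On every array Col1a1 was brighter than at least 99.57% of probe sets and Col3a1 than 99.54%. Whether differences between signals that high were compressed was not tested. Col1a2 (1370155_at) was at 11.50, 12.48 and 13.09 in controls, at 13.52, 13.61 and 13.86 in fibrotic and at 13.34, 12.24 and 12.16 in non-fibrotic bronchi. All fibrotic arrays were above all controls, by 1.24 ± 0.30 (adjusted p = 0.0086), and this call was the least secure of the 9, being lost in 12 of 26 alternatives. Col1a1 differed by 0.88 ± 0.22 (adjusted p = 0.011) and Col3a1 by 0.58 ± 0.17 (adjusted p = 0.025), so neither was called. For both, 1 control array, control 1, overlapped the fibrotic arrays: it read 14.17 for Col1a1, where the fibrotic arrays read 14.12, 14.45 and 14.59, and 13.98 for Col3a1, where they read 13.86, 14.21 and 14.18. The other probe set of Col1a1 gave nearly the same size, 0.89 ± 0.18, with an adjusted p of 0.0022, and Col1a1 was called in 8 of 26 alternatives in all. Without control 1 it differed by 1.01 (adjusted p = 0.0015) and Col3a1 by 0.68 (adjusted p = 0.0036), both then called, as they were with controls 3 to 6 alone, where the differences were 1.14 and 0.71. Col3a1 was called in 3 of 25 alternatives. Col3a1 lies next to Col5a2 in the genome, and of these neighbours Col5a2 was called and Col3a1 was not.

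Within arrays, a difference between the log2 signals of 2 chains can be compared from array to array although not read as a ratio of amounts. The log2 signal of Col5a2 minus that of Col1a1 ranged from −4.02 to −2.76 in controls, from −2.57 to −1.76 in fibrotic and from −3.56 to −3.07 in non-fibrotic bronchi. That of Col5a2 minus Col3a1 ranged from −3.64 to −2.90, from −2.33 to −1.34 and from −3.45 to −2.72. In both, the fibrotic arrays stood above all 9 others and the non-fibrotic arrays overlapped the controls. Both set Col5a2 against a chain near the top of the signal range, where compression was not tested. Against the other type I chain this was not so, since Col5a2 minus Col1a2 ranged from −2.70 to −1.62 in controls, from −1.73 to −1.02 in fibrotic and from −2.19 to −1.50 in non-fibrotic bronchi, and the groups overlapped.

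Of the other fibrillar chains, Col11a1, which nucleates fibrils in cartilage and in some scars, was under the background level on all 9 control and non-fibrotic arrays. In fibrotic bronchi it was at 1.84, 6.92 and 11.13, so 2 of 3 arrays were above the level, replicate 9 by far more than replicate 7. The difference was not called (adjusted p = 0.080), and the fibrotic mean was at least 1.08-fold higher than in controls. The second probe set of Col11a1 differed by 4.08 ± 1.39 and the third by 1.84 ± 1.53, neither called. The second was above the level on 1 array and the third on 0. Col11a2 was above the level on 1 array only, non-fibrotic replicate 8, at 9.21. Col9a3, a FACIT chain of cartilage, was also highest on that array, at 10.32, where no other array passed 6.83. Col27a1 differed by 0.31 ± 0.52 (adjusted p = 0.73).

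**Figure D2:**
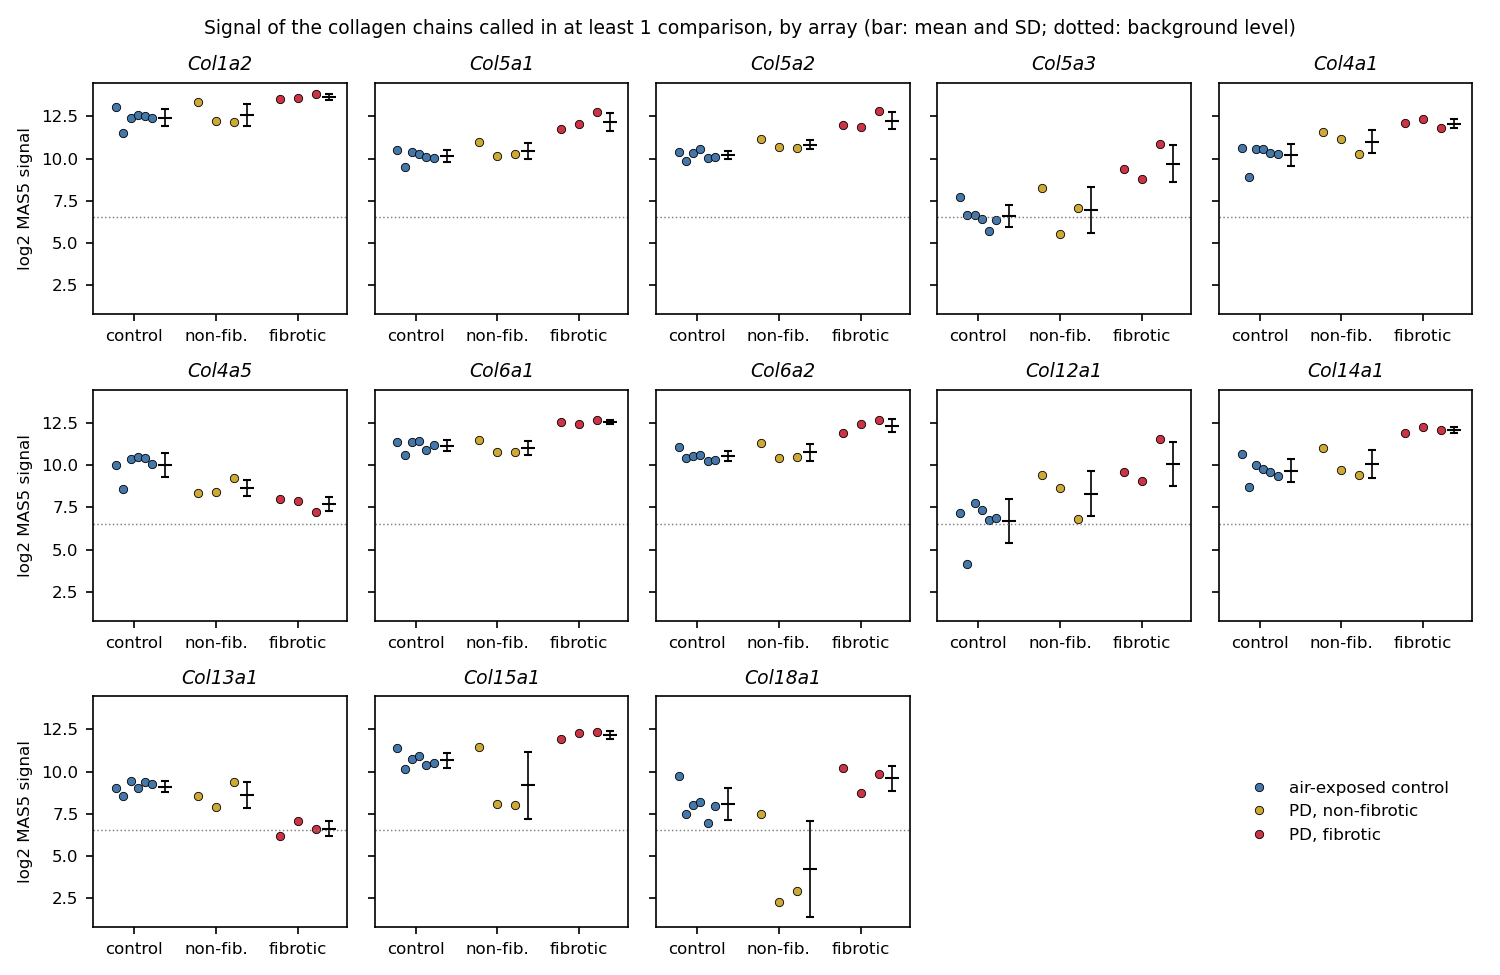
Log2 MAS5 signal on each of the 12 arrays for the 13 collagen chains called in at least 1 of the 3 comparisons, with the mean and SD of each group beside the points and the background level as a dotted line. For every chain that rose against controls but Col12a1 the 3 fibrotic arrays lie above all other arrays, for Col4a5 and Col13a1 below them, and for Col15a1 and Col18a1 non-fibrotic replicates 8 and 10 lie far below the other arrays.

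Of the 5 chains of type IV collagen, the basement membrane network, 1 rose, 1 fell and 3 were not called. Their genes lie in head-to-head pairs that share a stretch of DNA between 2 start sites, Col4a1 with Col4a2 on chromosome 16 and Col4a5 with Col4a6 on chromosome X. In fibrotic bronchi Col4a1 of the one pair rose and Col4a5 of the other fell, and their partners were not called, so the sequences between and before the start sites are shown. They are from RefSeq (GRCr8), on the strand named, with capitals for GC boxes (GGGCGG or its reverse complement CCGCCC). The stretch between the start sites of Col4a2 and Col4a1 has 76 bases (chr16:84885521-84885596, plus strand):

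Col4a2-Col4a1: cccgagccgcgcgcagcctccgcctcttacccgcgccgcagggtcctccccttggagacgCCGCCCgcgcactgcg

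The start sites of Col4a6 and Col4a5 are 1414 bases apart, and the 250 bases before each are chrX:109907109-109907358 on the plus strand for Col4a5 and chrX:109905945-109906194 on the minus strand for Col4a6:

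Col4a5: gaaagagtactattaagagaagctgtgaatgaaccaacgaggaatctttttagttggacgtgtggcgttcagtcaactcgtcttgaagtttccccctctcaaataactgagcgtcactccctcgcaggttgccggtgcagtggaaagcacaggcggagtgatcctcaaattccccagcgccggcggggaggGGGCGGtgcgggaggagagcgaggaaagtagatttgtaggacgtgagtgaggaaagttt

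Col4a6: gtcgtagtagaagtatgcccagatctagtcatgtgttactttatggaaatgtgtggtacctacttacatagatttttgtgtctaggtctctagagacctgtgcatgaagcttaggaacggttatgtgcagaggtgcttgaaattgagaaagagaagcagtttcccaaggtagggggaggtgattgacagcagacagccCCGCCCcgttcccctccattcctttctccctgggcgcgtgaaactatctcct

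Each of these 3 stretches holds 1 GC box on either strand and neither a TATA box (TATAAA) nor a CCAAT box (CCAAT). A GC box was in 18.1% of all 33469 promoter windows of 76 bases and in 30.5% of those of 250 bases, a TATA box in 4.6% and 12.9%, and a CCAAT box in 13.0% and 34.0%. The letters are a description of the windows and not of factors bound there.

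Col4a1 (1373245_at) was at 8.92, 10.43 and 10.64 in controls, 12.10, 12.32 and 11.82 in fibrotic and 11.60, 11.16 and 10.27 in non-fibrotic bronchi, a rise of 1.87 ± 0.35 in fibrotic bronchi (adjusted p = 0.0016). Col4a2 (1388494_at), which pairs with it in the commonest type IV helix, was at 9.70, 10.58 and 11.01, at 11.94, 11.87 and 11.65, and at 11.19, 9.38 and 10.40. All fibrotic arrays were above all controls for Col4a2 too, by 1.36 ± 0.36, but its adjusted p of 0.015 did not pass. The call of Col4a1 was lost without fibrotic replicate 3 or 7.

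Col4a5 (1374705_at), a chain of the type IV helices of specialized basement membranes, was at 8.61, 10.22 and 10.48 in controls, 8.01, 7.90 and 7.23 in fibrotic and 8.36, 8.41 and 9.22 in non-fibrotic bronchi. It fell by 2.28 on the log2 scale in fibrotic bronchi (SE 0.39, adjusted p = 7.4e-04), with all fibrotic arrays under all others. The call was lost with a term for the label form, where the difference was −1.59 (adjusted p = 0.029). Col4a6 (1384276_at), which joins Col4a5 in the helix found under epithelium and around smooth muscle, was at 5.30, 9.03 and 9.34 in controls, at 6.44, 6.24 and 1.66 in fibrotic and at 6.97, 6.20 and 8.38 in non-fibrotic bronchi. All 3 fibrotic arrays were under the background level, which makes the signal at least 3.85-fold lower than in controls, and control 2, the lowest control, was under it too (adjusted p = 0.020, not called). The second probe set of Col4a6 read 2.23, 1.61 and 2.83 in fibrotic bronchi and had a median of 8.49 in controls. It was called (adjusted p = 5.8e-05), with the fibrotic mean at least 2.93-fold lower.

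Within arrays the log2 signal of Col4a1 minus that of Col4a5 ranged from −0.14 to 0.64 in controls, from 4.10 to 4.59 in fibrotic and from 1.05 to 3.24 in non-fibrotic bronchi. The 3 groups did not overlap in this difference, and the non-fibrotic arrays lay between the others. These chains were picked because one rose and the other fell in these arrays. All fibrotic arrays were above all others for Col4a1 and under all others for Col4a5. The separation of the fibrotic arrays was thus fixed in advance and is no further result. Ciliated and club cell markers were also lower in fibrotic bronchi, as were 2 of 6 alveolar type II and 2 of 10 cartilage cell markers. The part of any of these cells in the fall of Col4a5 was not tested. The other type IV chain measured, Col4a4, was under the background level on all arrays.

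**Figure D3:**
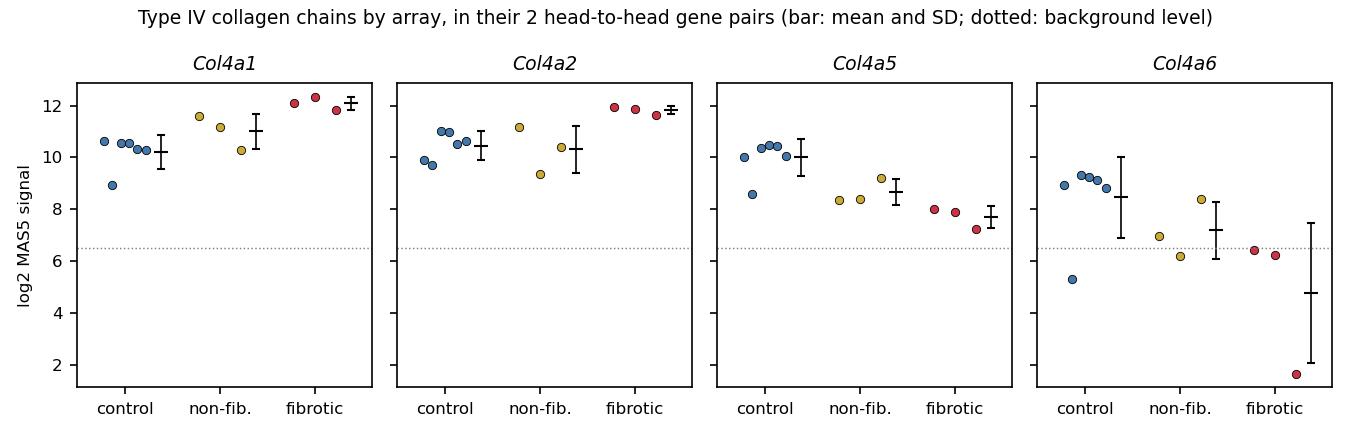
Log2 MAS5 signal of 4 type IV collagen chains on each of the 12 arrays, with the mean and SD of each group and the background level as a dotted line. In fibrotic bronchi Col4a1 and Col4a2 lie above all controls, Col4a5 lies below all controls, and all 3 Col4a6 values lie under the dotted line.

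Of the 5 microfibrillar chains, which are all of type VI, 2 rose and 3 were not called. Col6a1 (1371349_at) was at 10.62, 11.27 and 11.44 in controls, 12.55, 12.43 and 12.70 in fibrotic and 11.52, 10.78 and 10.78 in non-fibrotic bronchi, a rise of 1.41 ± 0.23 (adjusted p = 4.2e-04). Col6a2 (1371369_at) was at 10.23, 10.49 and 11.05, at 11.90, 12.43 and 12.67, and at 11.33, 10.43 and 10.50, a rise of 1.79 ± 0.25 (adjusted p = 1.3e-04), against 1.06 ± 0.34 by its second probe set (adjusted p = 0.039). These genes are neighbours in the genome, and for both all fibrotic arrays lay above all others. Col6a3, the largest chain of the classic type VI helix, differed by 1.15 ± 0.38 (adjusted p = 0.045), and its second probe set by 1.94 ± 0.41 (adjusted p = 0.0039). Col6a5 and Col6a6, later-found chains that can take the place of Col6a3, differed by −1.01 ± 0.50 and −0.06 ± 0.47. For Col6a5 the fibrotic arrays spread from 6.33 to 9.45 around controls at 8.47 to 9.45.

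Of the 9 FACIT chains, 2 rose, Col12a1 and Col14a1, and both coat type I fibrils. Col14a1 (1376105_at) was at 8.71, 9.69 and 10.66 in controls, 11.93, 12.24 and 12.09 in fibrotic and 11.00, 9.74 and 9.43 in non-fibrotic bronchi. It rose by 2.41 ± 0.38 (adjusted p = 3.4e-04), while its second probe set differed by 0.81 ± 0.38 (adjusted p = 0.15), so the size rested on the probe set. Col12a1 (1370927_at), typical of tendon and of tissue under load, had the largest difference of the called chains: 4.12, 7.03 and 7.76 in controls, 9.61, 9.06 and 11.57 in fibrotic and 9.44, 8.64 and 6.83 in non-fibrotic bronchi. It rose by 3.41 ± 0.76 (adjusted p = 0.0052), or 3.01 where dim arrays were placed at the background level, and its other probe sets differed by 3.99 ± 0.88 and 4.23 ± 1.17. The call was lost without fibrotic replicate 3 or 9. Col16a1 differed by 1.33 ± 0.39 with all fibrotic arrays above all controls (adjusted p = 0.025, not called).

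The other FACIT chains were dim or spread widely. Col9a1, Col19a1 and Col22a1 were under the background level throughout, Col9a2 differed by −2.22 ± 1.09 and Col20a1 by −0.76 ± 0.58, and neither was called. The median over the 9 FACIT chains was −0.31, and 0 where dim arrays were placed at the level, so the class did not move as one.

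Of the 4 transmembrane chains, 1 fell and none rose. Col13a1 (1382474_at), a collagen of cell-matrix contacts, was at 8.53, 9.15 and 9.45 in controls, 6.18, 7.07 and 6.60 in fibrotic and 8.58, 7.89 and 9.37 in non-fibrotic bronchi. All fibrotic arrays were below all others and 1 of them was under the background level. It fell by 2.50 on the log2 scale (SE 0.36, adjusted p = 1.7e-04), or by 2.38 with that array at the level. Col17a1, which anchors basal epithelial cells to the basement membrane, differed by 1.10 ± 0.71 (adjusted p = 0.31), Col23a1 by −1.23 ± 0.56 (adjusted p = 0.14) and Col25a1, above the level on 1 array only, by 0.61 ± 1.50. Ciliated and club cell markers fell too, as did 2 of 6 alveolar type II and 2 of 10 cartilage cell markers, and 8.38% of all genes. The summed signal of 7 club cell markers was 54285 to 107234 in controls and 6101 to 17843 in fibrotic bronchi. The part of any of these cells in the fall of Col13a1 was not tested.

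Of the remaining classes none had a chain called against controls. For the multiplexin Col15a1 all fibrotic arrays (11.92, 12.27 and 12.35) were above all controls (10.15 to 11.39), by 1.49 ± 0.56 (adjusted p = 0.077), and Col18a1 differed by 1.54 ± 0.89 (adjusted p = 0.25). Among short-chain network collagens Col8a1, a chain of vessel walls and of smooth muscle under repair, differed by 4.43 ± 1.22 (adjusted p = 0.019). It was at 2.66, 3.68 and 7.08 in controls, 9.51, 6.63 and 9.91 in fibrotic and 7.92, 2.39 and 4.19 in non-fibrotic bronchi. Where dim arrays were placed at the background level the difference was 2.07. Col8a2 differed by 0.56 ± 0.68 and Col10a1 was under the level throughout. Col7a1, the anchoring fibril collagen of the epithelial basement membrane, was at 2.61, 6.25 and 7.18 in controls and at 7.82, 7.22 and 7.84 in fibrotic bronchi, all higher, but its difference of 1.81 ± 1.04 was not called (adjusted p = 0.25).

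Counted by array order alone, the fibrotic values of 13 chains were all above the controls and those of 2 all below, against 15.1% and 13.4% of all genes. At an adjusted p under 0.05 there were 18 chains in place of 11, where 22.5% of all genes passed. Against controls 1 and 2 alone all 11 called chains kept their sign, with sizes of 1.37 to 4.43, but 1 was called, Col5a2, and against controls 3 to 6 alone all 11 were called. Of the 11 called chains 7 have other probe sets, and all 8 of these had the same sign, with 4 of them called.

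Non-fibrotic bronchi of the same exposure had no collagen chain called against controls by limma, where 0.183% of all genes rose and 0.436% fell. At an unadjusted p under 0.05, which 27.7% of all genes passed, there were 12 chains, and at an adjusted p under 0.05, which 6.56% of all genes passed, there were 2, Col9a1 and Col18a1. All 3 arrays were above all controls for 4 chains and below them for none, against 8.40% and 6.37% of all genes. Col9a1 was under the background level on all arrays, so its difference is between values that have no order. The median difference over the 41 chains was 0.21, against 0.00 over all genes. Where dim arrays were placed at the background level the median over the chains was 0. Of the chains that rose in fibrotic bronchi, Col5a2 differed by 0.61 ± 0.24 (adjusted p = 0.13), with all 3 non-fibrotic arrays above all controls, Col4a1 by 0.80 ± 0.35 (adjusted p = 0.17) and Col12a1 by 1.63 ± 0.76 (adjusted p = 0.18). Col1a2, Col5a1, Col6a1, Col6a2 and Col14a1 differed by 0.15 ± 0.30, 0.33 ± 0.28, −0.13 ± 0.23, 0.21 ± 0.25 and 0.38 ± 0.38, and Col5a3 by 0.37 ± 0.60. Col4a5 differed by −1.33 ± 0.39 (adjusted p = 0.056) and Col13a1 by −0.50 ± 0.36 (adjusted p = 0.40). Col1a1 and Col3a1 differed by 0.59 ± 0.22 (adjusted p = 0.11) and 0.41 ± 0.17 (adjusted p = 0.14), which for these chains was most of the difference seen in fibrotic bronchi. The misses do not show that the chains were at the control level. Summed signals of some cell markers differed here too. For 6 alveolar type II cell markers the sum was 49234 to 65594 in non-fibrotic bronchi and 19458 to 40168 in controls. Of these markers 5 differed upward, and the median difference was 1.41. For 7 macrophage markers the sum was 20035 to 25709 and 11130 to 18557. Only 3 of these 7 differed upward, and their median difference was −0.62, so the macrophage list did not move as one. No single marker of these 2 lists was called, and of all 85 markers 1 rose and 3 fell. Their part in the collagen values was not tested.

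The 3 non-fibrotic arrays were unlike each other. Replicate 4 was the highest of the 3, and above all 6 controls, for all 9 chains that rose in fibrotic bronchi, where replicate 8 was above all controls for 3 of them and replicate 10 for 1. Both multiplexins split these arrays. Col15a1 was at 11.48 in replicate 4 but at 8.09 and 8.01 in replicates 8 and 10, below all 9 control and fibrotic arrays. Col18a1, whose C-terminal fragment is endostatin, was at 7.51 in replicate 4 and at 2.28 and 2.94 in replicates 8 and 10, both under the background level, where controls read 6.94, 8.00 and 9.75. Col18a1 differed from controls by −3.82 ± 0.89 (adjusted p = 0.026), or by −1.22 where dim arrays were placed at the level, and its second probe set by −0.42 ± 0.94. On that second probe set the control median was 4.54, and only control 1, at 7.66, was above the background level among controls. The non-fibrotic arrays, at 6.41, 2.46 and 4.50 in replicates 4, 8 and 10, were all under it. The second probe set was thus too dim in controls to test a fall, and the low signal of Col18a1 was seen by the first alone. Col15a1 differed by −1.50 ± 0.56 (adjusted p = 0.11), and its second probe set by −1.10 ± 0.66.

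**Figure D4:**
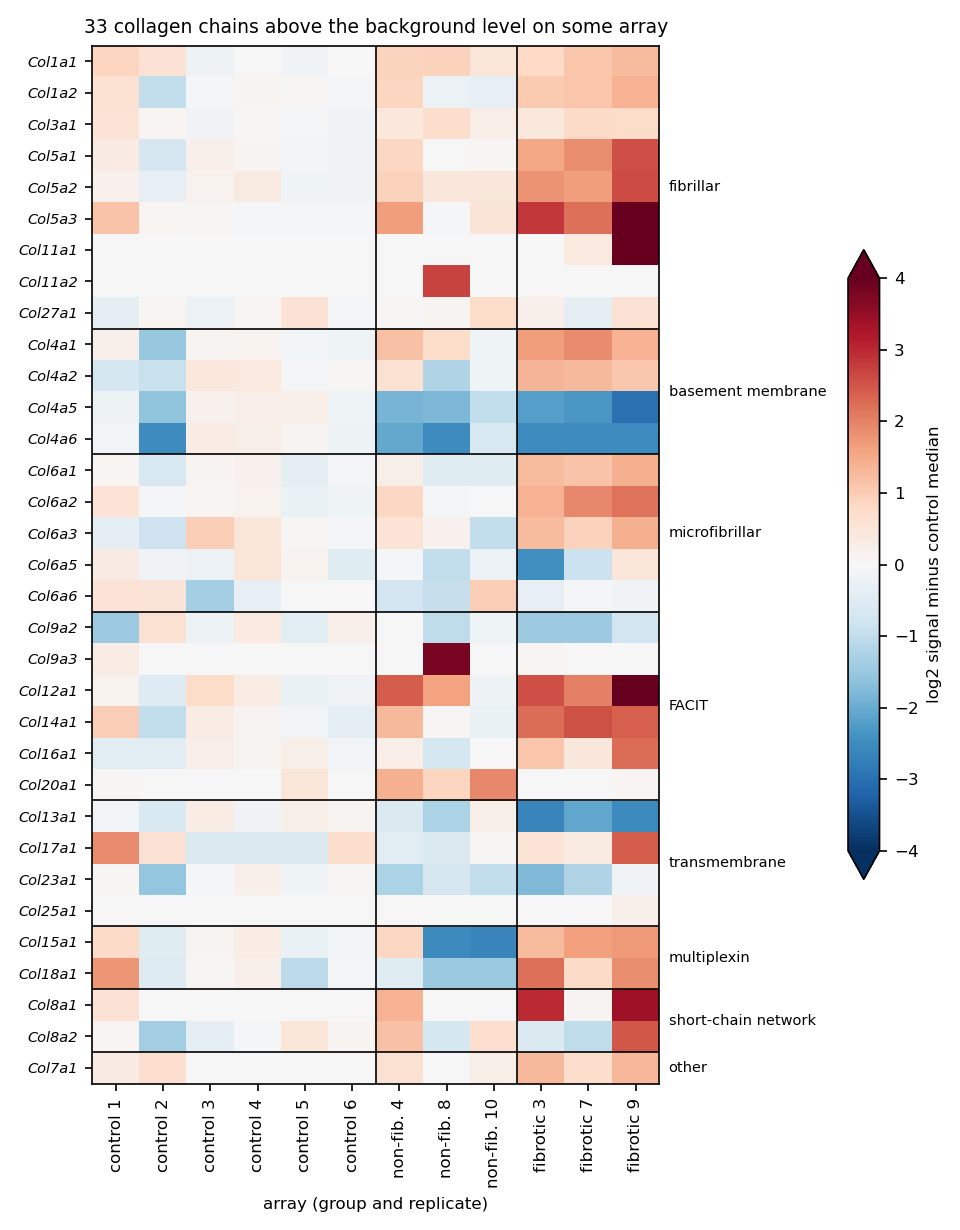
Log2 signal minus the control median for the 33 collagen chains above the background level on some array, in rows by class, and for 12 arrays in columns by group; values under the level were set to it first and the color scale ends at 4 in either direction. Col5a1, Col5a2, Col5a3, Col6a1, Col6a2, Col12a1 and Col14a1 are red in all 3 fibrotic columns, Col4a5, Col4a6 and Col13a1 are blue there, and among non-fibrotic columns replicate 4 is the highest for the chains that rose.

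Compared directly, 7 chains were higher in fibrotic than in non-fibrotic bronchi and 1 was lower, which is 17.1% and 2.44% of the chains where 1.47% of all genes rose and 3.83% fell. Chains higher in fibrotic bronchi were Col5a1 by 1.71 ± 0.32 (adjusted p = 0.0036), Col5a2 by 1.42 ± 0.28 (0.0047), Col6a1 by 1.53 ± 0.26 (0.0017), Col6a2 by 1.58 ± 0.29 (0.0031), Col14a1 by 2.03 ± 0.44 (0.0082), Col15a1 by 2.99 ± 0.64 (0.0082) and Col18a1 by 5.36 ± 1.03 (0.0037). Col13a1 was lower, by −2.00 ± 0.42 (adjusted p = 0.0071). For each of these 8 chains the 2 groups did not overlap, and over all chains this was so of 15 upward and 4 downward, against 14.1% and 13.3% of all genes. At an adjusted p under 0.05 there were 11 chains, where 12.6% of all genes passed. Of the 8 called chains 6 have another probe set. All 6 of these probe sets had the same sign, but only 1, that of Col5a2, was called. Their sizes ranged from 0.78 for Col6a2 to 3.16 for Col18a1. Cell markers differed between these groups too: all 5 ciliated and 5 of 7 club cell markers were lower in fibrotic bronchi, and 3 of 7 macrophage and 2 of 11 fibroblast markers were higher. The summed signal in non-fibrotic bronchi was 17581 to 28825 for ciliated cell markers, 50534 to 85263 for club cell markers, 20035 to 25709 for macrophage and 6709 to 12899 for fibroblast markers, and their part in these differences was not tested.

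The size for Col18a1 was 2.76 where dim arrays were placed at the background level, since 2 of 3 non-fibrotic arrays were under the level. Col15a1 and Col18a1 passed here and not against controls, as their non-fibrotic arrays 8 and 10 lay under the controls. Col5a3 differed by 2.74 ± 0.69 (adjusted p = 0.021), Col4a2 by 1.49 ± 0.41 (adjusted p = 0.032) and Col20a1 by −2.27 ± 0.67 (adjusted p = 0.043), and these were not called. Col1a1 and Col3a1 differed by 0.29 ± 0.26 and 0.18 ± 0.20. With no rat identity in the labels, tissue of a shared rat could not be paired. The number of calls in this comparison changed as single arrays were left out. None remained without non-fibrotic replicate 10, 1 was made without non-fibrotic replicate 8 or fibrotic replicate 9, and 4 without fibrotic replicate 3 or 7. There were 5 without control 3, 4, 5 or 6, and 10 without non-fibrotic replicate 4. Controls enter this comparison only through the estimate of spread. With controls 1 and 2 alone the sizes of the 8 chains were unchanged, at 1.42 to 5.36, and 1 was called.

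Collagen chains are modified, folded, trimmed, cross-linked and broken down by a known set of proteins, and 53 of a list of 68 such genes were measured. In fibrotic bronchi 12 rose and 1 fell against controls, which is 22.6% and 1.89% where 4.13% and 8.38% of all genes did, and the median over the 53 was 0.96. In non-fibrotic bronchi none was called against controls, and 11 had an unadjusted p under 0.05 by limma, which 27.7% of all genes had. Between fibrotic and non-fibrotic bronchi 4 were higher and 1 was lower, which is 7.55% and 1.89% where 1.47% and 3.83% of all genes were. For prolyl hydroxylation, which makes the helix stable, none of 9 genes was called, and the smallest p values were those of P3h3 (0.77 ± 0.28, adjusted p = 0.071) and P3h4 (0.95 ± 0.36, adjusted p = 0.086). For lysyl hydroxylation and glycosylation 1 of 5 rose. This was Plod2, the lysyl hydroxylase of the telopeptides that sets up stable cross-links, at 6.71, 8.78 and 9.53 in controls and 11.78, 11.45 and 11.82 in fibrotic bronchi (3.12 ± 0.53, adjusted p = 6.3e-04), and next was Colgalt1 (0.96 ± 0.27, adjusted p = 0.021).

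Of 9 genes listed under chaperones and export, a list that also holds the secreted protein Cthrc1, 3 rose. Serpinh1, which encodes the collagen chaperone HSP47, was at 10.75, 10.98 and 11.33 in controls, 12.25, 12.64 and 12.61 in fibrotic and 11.57, 11.20 and 10.65 in non-fibrotic bronchi. Its rise was 1.49 ± 0.22 over controls (adjusted p = 1.6e-04) and 1.36 over non-fibrotic bronchi (adjusted p = 0.0029). Cthrc1, a secreted protein of collagen-producing cells, rose by 4.08 ± 0.66 (adjusted p = 4.0e-04), as did Rcn3 by 1.72 ± 0.39. Of 2 genes for propeptide processing measured, Pcolce, the enhancer of the procollagen C-proteinase, rose by 1.83 ± 0.35 (adjusted p = 0.0015), and Bmp1, the proteinase itself, differed by −0.04 ± 0.41.

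None of 4 cross-linking enzymes was called: Lox differed by 2.39 ± 0.64 (adjusted p = 0.016) and Loxl2 by 2.19 ± 0.59 (adjusted p = 0.017), both with all fibrotic arrays above all controls. Of 8 proteoglycans that bind fibrils 2 rose, Bgn by 1.63 ± 0.23 (adjusted p = 1.2e-04) and Lum by 4.45 ± 0.70 (adjusted p = 3.6e-04). Between fibrotic and non-fibrotic bronchi Bgn differed by 0.64 ± 0.26 (adjusted p = 0.15) and Lum by 3.69 ± 0.81 (adjusted p = 0.0093). Of 11 genes for degradation and its inhibitors 4 passed the test upward, Timp2, Mmp14, Timp1 and Mmp13. Mmp13 was under the background level on all arrays but fibrotic replicate 3, at 6.98, and differed by 0.15 where dim arrays were placed at the level. Timp2 rose by 1.26 ± 0.21 (adjusted p = 4.9e-04) and the collagenase Mmp14 by 1.75 ± 0.32 (adjusted p = 0.0012). Of 5 collagen receptors Itgb1, the common beta chain of the collagen-binding integrins, rose by 1.18 ± 0.16 (adjusted p = 1.2e-04). Its difference between fibrotic and non-fibrotic bronchi was 0.29 ± 0.19 (adjusted p = 0.39). Ddr1, a collagen receptor of epithelial cells, fell by 1.85 on the log2 scale (SE 0.26, adjusted p = 1.2e-04), with 8.00, 9.05 and 9.12 in fibrotic bronchi, 10.28, 10.56 and 10.89 in controls and 10.94, 10.57 and 10.56 in non-fibrotic bronchi.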

How the data were processed

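Signals of 12 Affymetrix rat 3′ expression arrays (6 control, 3 fibrotic and 3 non-fibrotic specimens) were analysed. The probe set identifiers are those of a 3′ array, whereas the series text names a Gene ST array. Per the study's methods, RNA of laser-captured bronchi was amplified, and the authors computed and deposited intensity values with MAS5, on a linear scale, with a trimmed mean (2% at each end) of 500.1 to 500.2 on each array. Detection calls and error weights were not used here. Of 31099 probe sets, 57 are Affymetrix controls and 31042 were tested without a filter. The annotation gives 1 symbol for 20826 of these, several for 436 (not assigned) and none for 9780. All 41 chains matched RefSeq, and Col28a1, Col4a3 and Col6a4 were not analysed here. Promoter windows were found for 32 of 41.

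The log2 of each signal, with nothing added, was fitted with 1 model of 3 groups in limma 3.58.1 (lmFit, eBayes with trend) in R 4.3.3, with Benjamini-Hochberg adjustment within a contrast and calls at 0.01, the threshold of the methods' analysis of variance. The background level is the highest of 84 signals of bacterial probe sets, and a fold given as "at least" sets the dim group to it. The number of arrays limits precision. Members, classes and lists were chosen with earlier results of these data known. Chains called in some contrast, and the chain of smallest p of each class, are given by array. Of the pathway list the 2 genes of smallest p of each role are named, and others that rose were named after their values were seen. Code was tested on simulated data, with tables and plots by pandas 2.3.3 and matplotlib 3.10.9. Alternatives were another probe set or the mean of a gene's probe sets, filters, a floor, a pseudocount of 16, quantile normalization, no trend, array weights, the label form as a term or block (statmod 1.5.0), subsets of groups or controls, other thresholds and leaving out each array.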

Additional observations from a re-analysis of the deposited data

Results flagged for a closer look

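In 12 of 41 chains 1 control array stood apart from the other 5 by Dixon's test, which chance alone does in about 1 in 20 groups. In 7 of these it was control 2, with the lowest log2 signal each time: Col4a1 at 8.92, Col4a5 at 8.61, Col4a6 at 5.30, Col10a1 at 4.92, Col11a2 at 4.00, Col12a1 at 4.12 and Col23a1 at 6.73. Control 1 stood apart for Col3a1, where it was highest at 13.98, and for Col9a2, Col19a1 and Col27a1, where it was lowest at 2.85, −1.05 and 5.02. Control 3 was lowest for Col7a1, at 2.61. The values for Col10a1, Col11a2 and Col19a1, and the low values of Col4a6, Col7a1, Col9a2, Col12a1 and Col27a1, lie under the background level, where differences are not ordered.

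For the same 8 chains as in the direct comparison above, fibrotic and non-fibrotic bronchi of PD-exposed rats differed, by fibrotic minus non-fibrotic in the limma model (log2). This compares 2 tissues of exposed rats, and Col15a1 and Col18a1 were not called against controls in either. The differences were 1.71 for Col5a1, 1.42 for Col5a2, 1.53 for Col6a1, 1.58 for Col6a2, −2.00 for Col13a1, 2.03 for Col14a1, 2.99 for Col15a1 and 5.36 for Col18a1. For Col18a1 it was 2.76 where dim arrays were placed at the background level. None of the 8 was called without the trend, with array weights or without non-fibrotic replicate 10.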

How the results depend on the processing

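The count of chains called in fibrotic bronchi against controls (11) was 18 at an adjusted p under 0.05 and 1 with controls 1 and 2 alone, and 8 to 15 when 1 array was left out. For non-fibrotic bronchi against controls (0) it was 2 at an adjusted p under 0.05, 2 with controls 3 to 6 alone and 2 at an unadjusted p under 0.001 with a fold over 2, and 0 to 2 with 1 array left out. Between fibrotic and non-fibrotic bronchi (8) it was 4 with the probe set of second highest signal, 3 with the mean of probe sets, 0 without the trend, 0 with array weights, 1 with only the groups compared, 1 with controls 1 and 2 alone, and 0 to 10 with 1 array left out. The causes were not tested, apart from fewer arrays in some fits.

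For the pathway list the count of 13 in fibrotic bronchi against controls was 2 with controls 1 and 2 alone. In non-fibrotic bronchi against controls (0) it was 5 at an adjusted p under 0.05, 2 with controls 3 to 6 alone, 2 at an unadjusted p under 0.001 with a fold over 2, 1 each after quantile normalization, with a pseudocount of 16, with signals under the 20th percentile raised to it and with the dimmest 40% of probe sets removed, and 0 to 2 with 1 array left out. Between fibrotic and non-fibrotic bronchi (5) it was 13 at an adjusted p under 0.05, 1 without the trend, 2 with array weights, 1 with only the groups compared, 1 with controls 1 and 2 alone, and 1 to 13 with 1 array left out, the 13 without non-fibrotic replicate 4.

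No called chain changed sign. Differences that were not called and changed sign, all in non-fibrotic bronchi against controls but for Col20a1, took these log2 values. With controls 1 and 2 alone and with a term for the label form they were 0.53 for Col4a2, 0.066 for Col4a6, −0.24 for Col5a3, 0.038 for Col6a1, 0.51 for Col6a3, −0.086 for Col8a1 and 0.32 for Col16a1. With the label form as a random block they were 0.054 for Col4a2, 0.049 for Col6a3 and 0.038 for Col16a1. With the second probe set they were −0.020 for Col5a1, 0.13 for Col6a3 and −0.44 for Col14a1, which was −0.030 with the mean of probe sets, and Col1a2 was −0.024 after quantile normalization. With 1 array left out they ranged from −0.23 to 0.36 for Col1a2, −0.56 to 0.34 for Col4a2, −0.27 to 1.08 for Col5a3, −0.074 to 0.38 for Col6a2, −0.45 to 0.31 for Col6a3, −0.96 to 1.81 for Col8a1, −0.093 to 0.69 for Col14a1 and −0.28 to 0.21 for Col16a1, and in fibrotic bronchi against controls from −1.23 to 0.095 for Col20a1.

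No paired analysis was possible because the groups share fewer than 2 replicate numbers and the labels do not tie specimens to rats.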
